A study of Mus musculus with 12 samples.

Results

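Kit, Ly6a, Cd34, Fgd5 and Adgrg1 are 5 genes whose products are widely used to recognise blood stem and progenitor cells. They were chosen by name from the 35976 gene names in each library, and all 5 were among the 13316 genes that passed the filter on low values and were tested. The data were gene expression values from a line of mouse A2lox.cre embryonic stem cells that carries a doxycycline-inducible RUNX1-EVI1, a leukaemia fusion of the transcription factor RUNX1 with EVI1, the product of the Mecom gene. FLK1-positive cells from embryoid bodies were cultured towards blood with VEGF and IL-6 and sorted into 3 populations: hemogenic endothelium 1 and 2 (HE1 and HE2) and hematopoietic progenitors (HP). Hemogenic endothelium lines vessels and gives rise to the first blood cells. The PlusDox cells of each population received 0.5 µg/ml doxycycline for the last 18 hours and the NoDox cells received none. The 6 groups were therefore PlusDox HE1, NoDox HE1, PlusDox HE2, NoDox HE2, PlusDox HP and NoDox HP, with 2 biological replicates each. All 6 carry the uninduced or induced construct, and no line without it was analysed here. Colonies were expanded singly after targeting, and the labels do not say how many colonies the libraries came from.

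KIT is the receptor tyrosine kinase for stem cell factor and is needed by blood stem and progenitor cells, mast cells and germ cells. LY6A, better known as SCA-1, is held in the outer membrane by a lipid anchor and is a standard marker of adult mouse blood stem cells. It is also found on endothelium. CD34 is a sialomucin of progenitors and of vascular endothelium. ADGRG1 (GPR56) is an adhesion G protein-coupled receptor of blood stem cells, and its gene has been described as an EVI1 target in human leukaemia cells. FGD5 differs from the other members: it is a guanine nucleotide exchange factor for the small GTPase CDC42 and acts inside the cell, while its gene marks blood stem cells and endothelium. The 5 genes are therefore stem and progenitor markers, of which 4 encode surface proteins.

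Kit lies on mouse chromosome 5 (75574987 to 75656722, forward strand), Ly6a on chromosome 15 (74994877 to 74998031, reverse strand) and Cd34 on chromosome 1 (194938821 to 194961292, forward strand). Fgd5 lies on chromosome 6 (91978827 to 92076005, forward strand) and Adgrg1 on chromosome 8 (94974756 to 95014208, forward strand). These are RefSeq gene bounds in GRCm38 (mm10), the build named in the labels, and all 5 are annotated as protein coding. The 5 genes lie on different chromosomes. The 250 bases before the first listed RefSeq start (GRCm38.p6, forward strand) are shown for the 4 members with an entry, because they let the reader set these promoters beside the different courses of the genes. Capitals mark the ETS-type motif AGGAAG or its reverse complement.

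Kit (chr5:75574737-75574986): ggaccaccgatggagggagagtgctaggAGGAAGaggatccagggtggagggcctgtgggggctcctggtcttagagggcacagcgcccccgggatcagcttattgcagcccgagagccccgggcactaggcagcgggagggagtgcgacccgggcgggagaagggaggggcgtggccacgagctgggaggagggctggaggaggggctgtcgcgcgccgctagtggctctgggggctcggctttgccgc
Cd34 (chr1:194938571-194938820): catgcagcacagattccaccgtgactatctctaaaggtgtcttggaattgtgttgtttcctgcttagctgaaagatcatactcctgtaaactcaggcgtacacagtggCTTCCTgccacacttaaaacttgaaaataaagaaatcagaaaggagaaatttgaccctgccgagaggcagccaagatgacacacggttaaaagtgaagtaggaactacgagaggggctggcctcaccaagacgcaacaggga
Fgd5 (chr6:91978715-91978964): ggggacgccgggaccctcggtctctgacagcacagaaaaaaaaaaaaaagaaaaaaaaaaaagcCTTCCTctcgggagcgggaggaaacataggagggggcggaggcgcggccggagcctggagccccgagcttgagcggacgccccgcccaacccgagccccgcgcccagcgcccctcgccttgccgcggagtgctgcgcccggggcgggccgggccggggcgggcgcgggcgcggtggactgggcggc
Adgrg1 (chr8:94976859-94977108): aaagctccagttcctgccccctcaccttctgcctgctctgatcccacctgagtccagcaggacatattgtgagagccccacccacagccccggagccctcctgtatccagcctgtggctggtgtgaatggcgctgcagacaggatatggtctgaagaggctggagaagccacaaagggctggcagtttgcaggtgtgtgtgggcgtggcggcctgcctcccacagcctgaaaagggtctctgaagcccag

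The share of G and C was 71.6% for Fgd5, 70.8% for Kit, 60.8% for Adgrg1 and 46.4% for Cd34, against a median of 52.4% over 32851 promoter windows of 27025 genes. The windows were searched on both strands for motifs of 3 transcription factor families, none of whose spellings contains one of another family. The ETS motif, spelled CGGAAG or AGGAAG, was found once each in the windows of Kit, Cd34 and Fgd5, and 39.2% of all windows held it. The RUNX motif, spelled TGTGGT or TGCGGT and held by 18.6% of all windows, was not in these 4 windows. The GATA motif, spelled AGATAA or TGATAA and held by 16.6%, was not in them either. For Fgd5 the listed start lies inside the gene bounds given above, so that the window covers the outermost annotated start. The Adgrg1 window lies wholly inside the bounds of that gene and is not the sequence before its outermost start, and a second listed start of Adgrg1 (window 94984149 to 94984398) is not shown.

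Marker genes matched the names of the populations in direction. The summed FPKM (fragments scaled for transcript length and for library size) of 12 endothelial markers was 169 to 424 in the 4 HP libraries and 2138 to 2827 in the 4 HE1 libraries. That of 12 blood markers was 589 to 775 FPKM in HP and 56.4 to 92.1 FPKM in HE1. The gene Lars2 split the libraries, with 10223 to 19970 FPKM in 5 of them and 24.0 to 224 FPKM in the other 7. The 5 were the second replicates of PlusDox HE1, PlusDox HE2, PlusDox HP and NoDox HP and the first replicate of NoDox HE1. Mecom, whose reads include those of the fusion as far as they map to mouse, rose with doxycycline in HP by 2.40 ± 0.32 on the log2 scale (limma adjusted p = 0.0058). Its value was −0.10 ± 0.32 in HE1 (limma adjusted p = 0.986) and 0.98 ± 0.32 in HE2 (limma adjusted p = 0.0923), and Runx1 passed the test in no population. Hprt, beside which A2lox.cre cells carry their inducible construct, rose by 3.47 ± 0.36 in HE1, 2.84 ± 0.36 in HE2 and 3.26 ± 0.36 in HP (limma adjusted p = 0.00243, 0.00127 and 0.00305).

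The 5 genes followed 3 kinds of course over the populations. Adgrg1 was the lowest of the set in HE1 and second to Cd34 or above it in HP, Ly6a and Fgd5 declined towards HP, and Kit and Cd34 stayed within a narrow range. With doxycycline Ly6a and Fgd5 changed. Ly6a was higher in PlusDox than in NoDox cells in HE2 and in HP, and Fgd5 in HP. Kit, Cd34 and Adgrg1 passed the test with doxycycline in no population. The test was limma on log2(FPKM + 1) over all 13316 genes and 12 libraries, without a term for the replicate number (a replicate block). Called genes are those with an adjusted p below 0.05. With such a block, Kit in HE2 and several steps between populations passed, as given below.

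With doxycycline 1.37% of the tested genes were called in HE1, 6.06% in HE2 and 0.834% in HP, against 0, 1 and 2 of the 5 members. In HE2, where 1 member passed, 807 genes did so in all. For the differences between doxycycline effects, 0 of 15 member values were called, and 0.0451% of genes were called for HE2 minus HE1, 0.0150% for HP minus HE2 and 0.0375% for HP minus HE1. The lowest limma adjusted p of the 15 was 0.254, and 4 had an unadjusted p below 0.05.

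Over the 6 steps between populations, 13 of 30 member values were called, 5 for Ly6a and 4 each for Fgd5 and Adgrg1. In PlusDox cells 8.59% of tested genes were called for HE2 against HE1, 16.9% for HP against HE2 and 38.7% for HP against HE1. In NoDox cells the shares were 10.1%, 16.0% and 40.6%. The steps share populations and are not independent of each other.

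**Figure D1:**
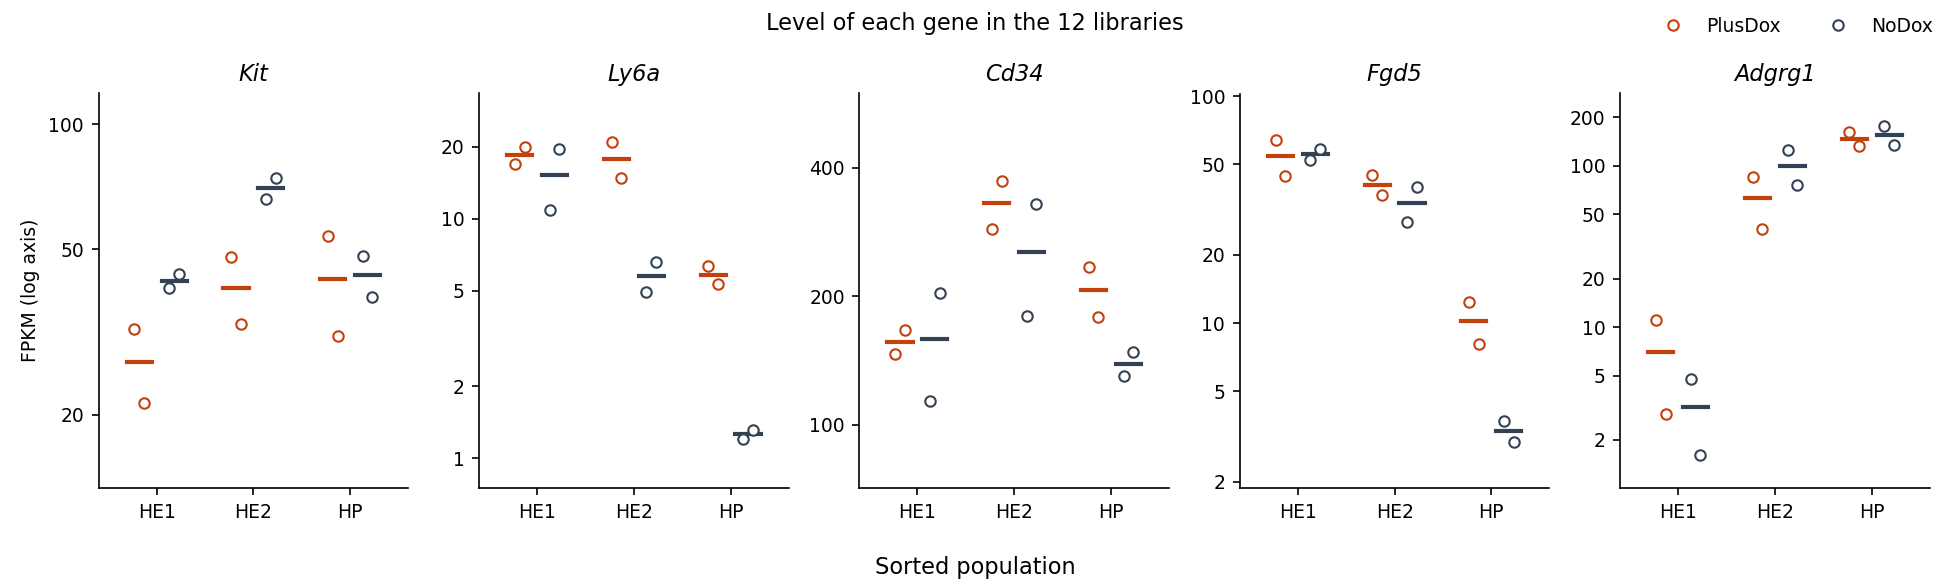
FPKM of each gene on a log axis (panels have their own ranges) in the 3 sorted populations, with PlusDox left of NoDox; circles are the 2 libraries of a group and bars their mean. Ly6a and Fgd5 fall towards HP in both doxycycline conditions and lie higher in PlusDox HP than in NoDox HP, and Adgrg1 climbs from HE1 to HP.

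Ly6a showed the clearest response. In HE1 it stood at 17.0 and 19.9 FPKM in PlusDox cells and at 10.9 and 19.6 FPKM in NoDox cells (replicates 1 and 2, as in all pairs of values here). In HE2 it was 20.9 and 14.8 FPKM in PlusDox cells and 4.95 and 6.63 FPKM in NoDox cells. In HP it was 6.34 and 5.35 FPKM in PlusDox cells and 1.20 and 1.31 FPKM in NoDox cells. The groups overlapped in HE1, whereas both PlusDox libraries lay above both NoDox libraries in HE2 and in HP. Separation of 2 libraries from 2 often arises without an effect, and its share over all genes was not determined. Here and below it is given as a description of the values. The means were 17.8 ± 4.31 FPKM in PlusDox HE2 against 5.79 ± 1.19 FPKM in NoDox HE2, and 5.85 ± 0.702 FPKM in PlusDox HP against 1.26 ± 0.0778 FPKM in NoDox HP (SD, n = 2 libraries, as for all means here). Ly6a rose with doxycycline by 1.46 ± 0.27 in HE2 and by 1.60 ± 0.27 in HP (log2 of FPKM + 1, SE, limma adjusted p = 0.00833 and 0.018). In HE1 the log2 fold change was 0.31 ± 0.27 (limma adjusted p = 0.895, 95% interval −0.27 to 0.89). The added 1 holds down the fold of a low gene: the ratio of mean FPKM in HP was 4.65, where the fold on the tested scale was 3.03.

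The order of the Ly6a means from high to low was PlusDox HE1, PlusDox HE2, NoDox HE1, PlusDox HP, NoDox HE2 and NoDox HP. The first 3 overlapped in their libraries, as did PlusDox HP with NoDox HE2, and NoDox HP lay below every other library. With doxycycline the HE2 against HE1 value was −0.06 ± 0.27 (limma adjusted p = 0.905), and Ly6a fell by 1.44 ± 0.27 in HP against HE2 (limma adjusted p = 0.00264). Without doxycycline Ly6a fell by 1.22 ± 0.27 in HE2 against HE1 (limma adjusted p = 0.0151) and by a further 1.58 ± 0.27 in HP against HE2 (limma adjusted p = 0.00142). The direct test of whether the doxycycline effect in HE2 exceeded that in HE1 gave a log2 difference of 1.16 (95% interval 0.33 to 1.98), with an unadjusted p of 0.00989 and a limma adjusted p of 0.472. The effect in HP minus that in HE1 was 1.29 (0.47 to 2.11, limma adjusted p = 0.365). Neither difference passed, so the response of Ly6a is not shown to differ between populations.

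The Ly6a calls rested on few libraries. In HE2 the call was lost without NoDox HE2 replicate 1 (log2 1.28, limma adjusted p = 0.0891) or PlusDox HE2 replicate 1 (1.23, limma adjusted p = 0.0519). In HP it was lost without any 1 of the 4 HP libraries, with log2 folds of 1.49 to 1.70 and limma adjusted p of 0.102 to 0.166. The fall in NoDox HE2 against NoDox HE1 was lost without NoDox HE1 replicate 2 (−0.82, limma adjusted p = 0.177) or NoDox HE2 replicate 1 (−1.04, limma adjusted p = 0.141). Ly6a also shares sequence with its family: 246 of its 1297 stretches of 50 exonic bases occurred in other genes, including Ly6c1, Ly6c2 and Ly6i. Of these, Ly6c1 was the only one tested, and its log2 fold changes with doxycycline were −0.30 in HE1, 0.15 in HE2 and 0.28 in HP, none past the test. Ly6c2 and Ly6i averaged at most 0.374 and 0.134 FPKM in any group.

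Fgd5 passed the doxycycline test in HP. In HE1 it stood at 64.2 and 44.3 FPKM in PlusDox cells and at 52.4 and 58.7 FPKM in NoDox cells, and in HE2 at 44.8 and 36.7 FPKM in PlusDox cells and at 28.0 and 39.6 FPKM in NoDox cells. In HP it was 12.3 and 8.10 FPKM in PlusDox cells and 3.70 and 3.0 FPKM in NoDox cells. The groups overlapped in HE1 and in HE2, and both PlusDox libraries of HP lay above both NoDox libraries. The mean was 10.2 ± 3.01 FPKM in PlusDox HP and 3.35 ± 0.491 FPKM in NoDox HP. Fgd5 rose by 1.35 ± 0.25 in HP (limma adjusted p = 0.0326). The log2 fold change was −0.06 ± 0.25 in HE1 (95% interval −0.61 to 0.49, limma adjusted p = 0.993) and 0.28 ± 0.25 in HE2 (−0.27 to 0.82, limma adjusted p = 0.571). The effect in HP minus that in HE1 was 1.40 (0.63 to 2.18, limma adjusted p = 0.254) and that in HP minus HE2 was 1.07 (0.29 to 1.85, limma adjusted p = 0.554), so that a difference between populations did not pass for Fgd5 either.

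Fgd5 had its highest means in NoDox HE1 and PlusDox HE1, which overlapped, followed by PlusDox HE2 and NoDox HE2, which also overlapped, then PlusDox HP and NoDox HP, which did not. The libraries of PlusDox HE1 and PlusDox HE2 just overlapped. With doxycycline it fell by 1.92 ± 0.25 in HP against HE2 and by 2.30 ± 0.25 in HP against HE1 (limma adjusted p = 0.00029 and 2.25e-05). Without doxycycline it fell by 2.99 ± 0.25 and 3.70 ± 0.25 in the same steps (limma adjusted p = 1.29e-05 and 5.6e-07). The step HE2 against HE1 gave −0.39 ± 0.25 in PlusDox cells (limma adjusted p = 0.358) and −0.72 ± 0.25 in NoDox cells (limma adjusted p = 0.0897). The NoDox value passed after quantile normalization (−0.87, limma adjusted p = 0.0143), after median scaling (−0.90, 0.00883) and with the Lars2 class of the library as a term (−0.89, 0.0156). It also passed with a replicate block. The HP rise with doxycycline no longer passed without NoDox HP replicate 1 (1.46, limma adjusted p = 0.166), NoDox HP replicate 2 (1.23, 0.233), PlusDox HP replicate 1 (1.07, 0.211) or PlusDox HP replicate 2 (1.62, 0.059). It was also lost without NoDox HE1 replicate 1 or NoDox HE1 replicate 2, at an unchanged fold and a limma adjusted p of 0.0585 and 0.0585, since these libraries enter only the estimate of the spread.

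Markers of endothelium moved in HE2 and HP, the populations in which Ly6a was called, while Fgd5 was called in HP alone. Their summed level in HE1 was 2167 to 2584 FPKM in PlusDox cells and 2138 to 2827 FPKM in NoDox cells, which overlapped. It was 2008 to 2151 FPKM in PlusDox HE2 against 1115 to 1653 FPKM in NoDox HE2, and 322 to 424 FPKM in PlusDox HP against 169 to 194 FPKM in NoDox HP. Of the 12 markers, 0 rose with doxycycline in HE1, 4 in HE2 and 4 in HP by limma, and none fell. Over all tested genes 1.37%, 6.06% and 0.834% were called there. Markers of blood and myeloid cells moved in HE2 too. Of the 12 blood markers 1 was called higher in HE1, 4 in HE2 and 1 in HP, and none was called lower. Those of HE2 were Coro1a, Ptprc, Spi1 and Spn. The whole list summed to 307 to 449 FPKM in PlusDox HE2 against 273 to 395 FPKM in NoDox HE2, which overlapped. The uncalled blood markers went both ways in HE2. Myb was −0.81, Itga2b −0.74, Gfi1b −0.62, Vav1 −0.30, Gata1 −0.26 and Was −0.00029, while Laptm5 was 0.41 and Lcp1 1.03. Of 7 tested myeloid markers, Cd68 and Tyrobp rose and Mpo fell in HE2, and Cd68 rose in HE1. Erythroid markers were split: Rhag was called at 1.83 in HE2 and 1.99 in HP, and Alas2 at −1.43 and −1.54. The erythroid list summed to 6948 to 11266 FPKM in PlusDox HP and 10422 to 12747 FPKM in NoDox HP. The mesenchymal marker Pdgfrb (−1.24) and the cardiac marker Tnnt2 (−1.64) were called lower in HE2. The part of these shifts in the Ly6a and Fgd5 values was not tested. In bulk RNA of a sorted population, more cells of a type and more RNA per cell cannot be told apart.

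**Figure D2:**
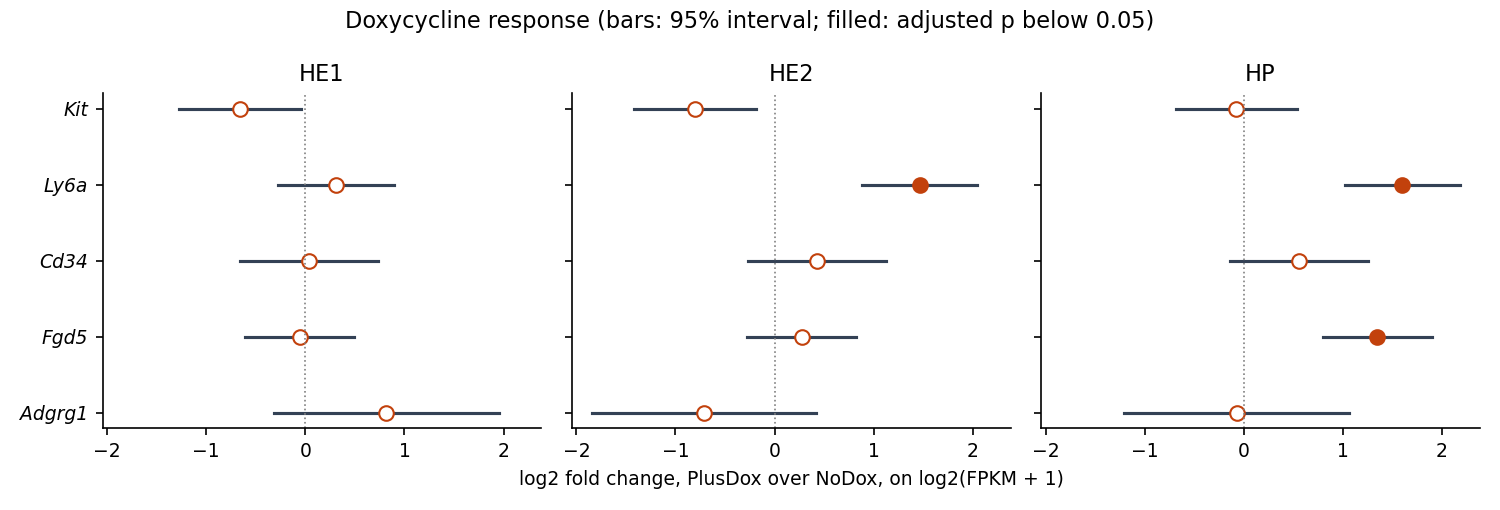
Log2 fold change of each gene with doxycycline (PlusDox over NoDox, on log2(FPKM + 1)) in HE1, HE2 and HP; points are limma estimates, bars 95% intervals, and filled points passed at an adjusted p below 0.05. The filled points are Ly6a in HE2 (1.46) and HP (1.60) and Fgd5 in HP (1.35).

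Kit, the stem cell factor receptor, lay lower with doxycycline in both hemogenic endothelium populations without passing the test. In HE1 it stood at 32.2 and 21.3 FPKM in PlusDox cells and at 40.5 and 43.6 FPKM in NoDox cells. In HE2 it was 47.8 and 33.0 FPKM in PlusDox cells and 66.3 and 74.2 FPKM in NoDox cells. Its HP levels were 53.9 and 30.9 FPKM in PlusDox cells and 48.2 and 38.5 FPKM in NoDox cells. Both PlusDox libraries lay below both NoDox libraries in HE1 and in HE2, and the groups overlapped in HP. As for Ly6a, such a separation is a description and not a test. The log2 fold change was −0.66 ± 0.28 in HE1 (95% interval −1.27 to −0.05, limma adjusted p = 0.453) and −0.80 ± 0.28 in HE2 (−1.42 to −0.19, limma adjusted p = 0.112). The HP value was −0.08 ± 0.28 (−0.69 to 0.54, limma adjusted p = 1). In HE2 the value passed after quantile normalization (−0.72, limma adjusted p = 0.0405) and after scaling each library to its median expressed gene (−0.73, 0.0405). With a replicate block it passed as well (−0.80, limma adjusted p = 0.0245).

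Kit was highest in NoDox HE2 (70.3 ± 5.58 FPKM), whose 2 libraries lay above the other 10, and its lowest mean was in PlusDox HE1 (26.7 ± 7.68 FPKM), with the other 4 group means between 40.4 and 43.3 FPKM and overlapping in part. The highest group mean was 2.63 times the lowest. No step between populations passed for Kit in the main fit to all libraries. Its PlusDox values were 0.58 ± 0.28 for HE2 against HE1 and 0.04 ± 0.28 for HP against HE2 (limma adjusted p = 0.221 and 0.953), and its NoDox values 0.73 ± 0.28 and −0.69 ± 0.28 (limma adjusted p = 0.118 and 0.128). For HP against HE1 the PlusDox value was 0.62 ± 0.28 (limma adjusted p = 0.101), which passed without PlusDox HP replicate 2 (1.01, limma adjusted p = 0.0208). With the Lars2 class as a term both HP against HE1 (0.62, limma adjusted p = 0.0105) and HE2 against HE1 (0.58, 0.0359) passed in PlusDox cells. HP against HE2 in NoDox cells passed after quantile normalization (−0.63, limma adjusted p = 0.0486). With a replicate block it passed too, as did HE2 against HE1 in NoDox cells and HP against HE1 in PlusDox cells. Populations of this kind are commonly sorted on KIT together with TIE2 (Tek) and CD41 (Itga2b). The gates are unknown here, so a level of Kit set by the gate and one set by the cells cannot be told apart. Tek and Itga2b passed the doxycycline test in no population. In HE1, HE2 and HP the log2 fold change of Tek was −0.69 ± 0.25, 0.22 ± 0.25 and 0.75 ± 0.25. That of Itga2b was −1.22 ± 0.45, −0.74 ± 0.45 and 0.16 ± 0.45, so in HE1 both lay lower with doxycycline, as Kit did.

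Cd34 was the most abundant member on the length-scaled FPKM scale in HE1 and HE2 in both doxycycline conditions. In HE1 it stood at 146 and 167 FPKM in PlusDox cells and at 114 and 204 FPKM in NoDox cells. In HE2 it was 287 and 373 FPKM in PlusDox cells and 179 and 329 FPKM in NoDox cells. Its HP levels were 234 and 179 FPKM in PlusDox cells and 130 and 148 FPKM in NoDox cells. The groups overlapped in HE1 and in HE2, and both PlusDox libraries of HP lay above both NoDox libraries. The log2 fold change with doxycycline was 0.04 ± 0.32 in HE1 (95% interval −0.66 to 0.73, limma adjusted p = 0.996) and 0.43 ± 0.32 in HE2 (−0.27 to 1.12, limma adjusted p = 0.47). The HP value was 0.56 ± 0.32 (−0.14 to 1.25, limma adjusted p = 0.708).

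The group means of Cd34 spanned a factor of 2.37, with 330.1 ± 61.2 FPKM in PlusDox HE2 at the top and 139 ± 12.6 FPKM in NoDox HP at the bottom. The order between them was NoDox HE2, PlusDox HP, NoDox HE1 and PlusDox HE1, and each pair of neighbours overlapped. No step passed. The nearest to the threshold was HE2 against HE1 in PlusDox cells (1.06 ± 0.32, limma adjusted p = 0.0613), which passed at the same fold when NoDox HE1 replicate 1, NoDox HE1 replicate 2, NoDox HE2 replicate 1 or NoDox HE2 replicate 2 was left out (limma adjusted p = 0.0461, 0.0461, 0.0355 and 0.0353). HP against HE2 in NoDox cells was −0.80 ± 0.32 (limma adjusted p = 0.119) and passed without NoDox HE2 replicate 1 (−1.24, limma adjusted p = 0.0316). The antisense gene Gm16897 overlaps Cd34 and was listed at 1.19 to 4.15 FPKM, and whether counting used the strand is not known here.

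Adgrg1 had the widest range of the members, with a highest group mean 48.6 times the lowest. In HE1 it stood at 11.1 and 2.87 FPKM in PlusDox cells and at 4.77 and 1.61 FPKM in NoDox cells. In HE2 it was 85.7 and 40.5 FPKM in PlusDox cells and 125 and 75.6 FPKM in NoDox cells. Its HP levels were 161 and 133 FPKM in PlusDox cells and 175 and 135 FPKM in NoDox cells. PlusDox and NoDox libraries overlapped in every population, while every HE2 library lay above every HE1 library and every HP library above every HE2 library. Replicate 1 was the higher of each pair in all 6 groups. With doxycycline the log2 fold change was 0.82 ± 0.52 in HE1 (95% interval −0.31 to 1.95, limma adjusted p = 0.754), −0.71 ± 0.52 in HE2 (−1.84 to 0.42, limma adjusted p = 0.46) and −0.07 ± 0.52 in HP (−1.20 to 1.06, limma adjusted p = 1). The SE of 0.52 was the largest of the 5 members.

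Adgrg1 rose by 3.13 ± 0.52 in PlusDox HE2 against PlusDox HE1 (limma adjusted p = 0.00357) and by 4.66 ± 0.52 in NoDox HE2 against NoDox HE1 (limma adjusted p = 0.000337). The further step HP against HE2 was 1.3 ± 0.52 in PlusDox cells (limma adjusted p = 0.115) and 0.66 ± 0.52 in NoDox cells (limma adjusted p = 0.466), neither past the test. The PlusDox value of this step passed with a replicate block. In HP against HE1 it rose by 4.43 ± 0.52 in PlusDox cells and by 5.32 ± 0.52 in NoDox cells (limma adjusted p = 3.85e-05 and 7.77e-06). The HE2 step with doxycycline minus that without was −1.53 (95% interval −3.13 to 0.07, limma adjusted p = 0.761).

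**Figure D3:**
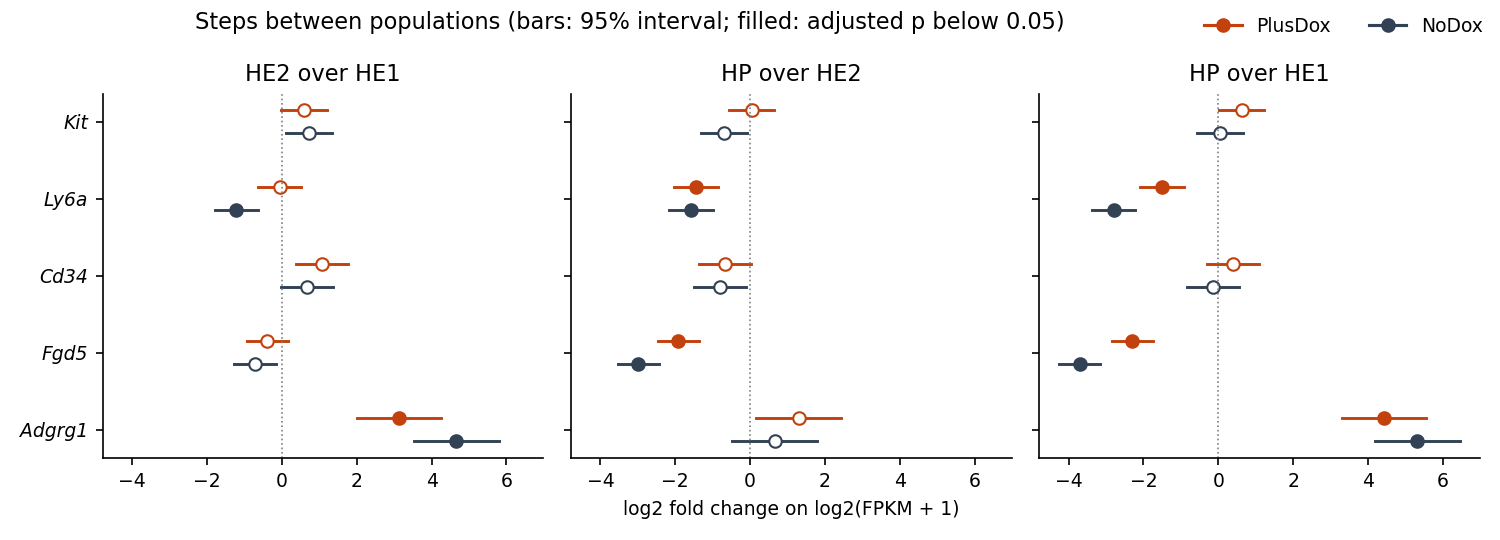
Log2 fold change of each gene between populations (HE2 over HE1, HP over HE2, HP over HE1, on log2(FPKM + 1)), with PlusDox above NoDox; points are limma estimates, bars 95% intervals, and filled points passed at an adjusted p below 0.05. Adgrg1 is filled in HE2 over HE1, Fgd5 and Ly6a in HP over HE2, and Kit and Cd34 in none.

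The distance between members was taken as the root mean square difference of their log2 values over the 12 libraries after each gene was centred on its own mean, so that 0 means an identical course. Cd34 and Kit (0.59) and Ly6a and Fgd5 (0.60) were the closest pairs, and Fgd5 and Adgrg1 the farthest (3.31). Genes that vary little lie close by this measure even where their courses differ. The root mean square spread was 0.47 for Kit and 0.51 for Cd34, each smaller than the distance between them. For Ly6a and Fgd5 it was 1.12 and 1.38, each larger than their distance, so only this pair was close for its spread. Among 8629 genes with a mean of at least 5 FPKM, the nearest to Kit was Rwdd2b (0.15), followed by Fam63a, Kat2a and Rhbdd2 (0.19 to 0.20). Ly6a was nearest to Plp2 (0.30), Spata13, Anxa5 and Sh3pxd2b. Plp2 had 46.5 ± 2.43 FPKM in PlusDox HP against 11.6 ± 4.10 FPKM in NoDox HP, and 89.8 ± 11.2 FPKM in PlusDox HE2 against 37.8 ± 18.4 FPKM in NoDox HE2. Plp2 was picked for its nearness to Ly6a over these same libraries, so its likeness to the Ly6a pattern follows from the choice. Fgd5 was nearest to Ptrf (0.22), a caveola coat gene, then to Mmp2, Tns2 and Arhgap31. Cd34 was nearest to Bmf (0.25), Slc25a45, Serf1 and Pdk1. Adgrg1 was nearest to the blood transcription factor gene Myb (0.51), followed by Itgb3, Atp2a3 and Gfi1b, with a larger distance that goes with its wider range. These likenesses are descriptions over 12 libraries that share the same populations.

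Other surface genes of stem and progenitor cells were set beside the members. Of 16 analysed, 12 passed the filter, while Flt3, Cd48, Cd27 and Thy1 did not. With doxycycline 1 rose in HE1, 5 in HE2 and 2 in HP, where 1.37%, 6.06% and 0.834% of all tested genes were called. The median log2 fold changes of these 12 were 0.08 in HE1, 0.72 in HE2 and 0.78 in HP, against −0.07, −0.05 and −0.0028 over all tested genes. In HE2, Prom1 (CD133) rose by 2.61 ± 0.33, with 8.76 ± 2.32 FPKM in PlusDox cells and 0.644 ± 0.672 FPKM in NoDox cells (limma adjusted p = 0.00127). Procr, the endothelial protein C receptor, rose by 2.13 ± 0.24, with 135 ± 10.7 FPKM in PlusDox cells and 30.8 ± 9.71 FPKM in NoDox cells (limma adjusted p = 0.000681). Spn (CD43) rose by 1.58 ± 0.21 (limma adjusted p = 0.00172). The adhesion receptor gene Cd44 rose by 1.17 ± 0.30, with 34.9 ± 0.206 FPKM in PlusDox HE2 and 16.4 ± 9.87 FPKM in NoDox HE2 (limma adjusted p = 0.0431).

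In HP, Procr rose by 1.71 ± 0.24 and Spn by 1.17 ± 0.21 (limma adjusted p = 0.00764 and 0.0315), and in HE1 Prom1 rose by 2.44 ± 0.33 (limma adjusted p = 0.00514). Prom1 in HP was near 0 in both groups, at 0.241 ± 0.0176 FPKM in PlusDox cells and 0.00936 ± 0.0132 FPKM in NoDox cells. The genes of this list do not stand for 1 cell type, since Esam is also an endothelial marker and Spn and Itga2b are blood markers in the lists used here. With 1 library left out, the number that rose was 0 to 1 in HE1, 3 to 5 in HE2 and 0 to 3 in HP. None rose in HE1 without NoDox HE1 replicate 1, and none in HP without any 1 of the 4 HP libraries. With the Lars2 class of the library as a term, 1 rose in HE1, 4 in HE2 and 4 in HP. The 7 libraries low in Lars2 hold 1 library in every group but NoDox HE2. A fit to them alone therefore cannot decide whether these calls hold.

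**Figure D4:**
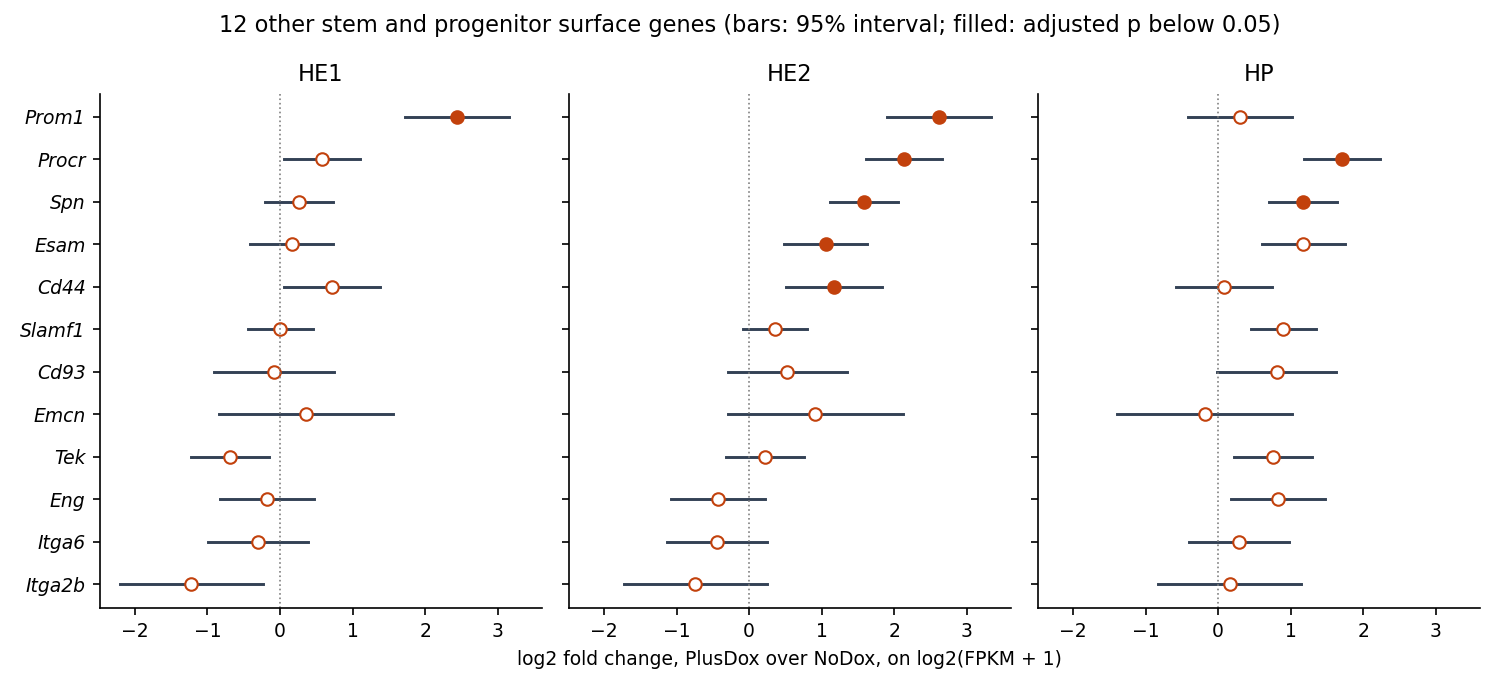
Log2 fold change with doxycycline (PlusDox over NoDox, on log2(FPKM + 1)) of 12 other stem and progenitor surface genes in HE1, HE2 and HP; points are limma estimates, bars 95% intervals, and filled points passed at an adjusted p below 0.05. Prom1, Procr and Spn lie farthest to the right in HE2 (2.61, 2.13 and 1.58).

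The lists of partners of each member are read against the same shares of all genes called (1.37% in HE1, 6.06% in HE2 and 0.834% in HP) and the same medians of all tested genes (−0.07, −0.05 and −0.0028). Of 25 genes for the KIT ligand and its signalling chain, all tested, 2 rose in HE2 and none passed in HE1 or HP, with medians of −0.10 in HE1, −0.17 in HE2 and 0.10 in HP. The 2 were Ptpn6, which encodes the phosphatase SHP-1, a brake on KIT signalling (1.17 ± 0.31, 70.1 ± 19.2 FPKM in PlusDox HE2 and 30.0 ± 2.16 FPKM in NoDox HE2, limma adjusted p = 0.0441), and the adaptor gene Grb7 (1.79 ± 0.31, limma adjusted p = 0.00654). Of 15 Ly6 family genes, 4 were tested and 1, Ly6e, rose in HE2 by 1.45 ± 0.23, with 16.3 ± 1.23 FPKM in PlusDox cells and 5.43 ± 1.56 FPKM in NoDox cells (limma adjusted p = 0.00431). The family medians were −0.13 in HE1, 0.20 in HE2 and 0.17 in HP.

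Among 8 tested genes of the CD34 family, its selectin ligand partners and its tail-binding proteins, Selp (P-selectin) rose in HE2 by 1.16 ± 0.24 and in HP by 1.43 ± 0.24 (limma adjusted p = 0.0152 and 0.0171). In HE1 Ezr, which encodes the membrane linker ezrin, rose by 1.27 ± 0.24 (limma adjusted p = 0.025). The medians of this list were −0.09 in HE1, 0.52 in HE2 and 0.43 in HP. Among 8 genes of the FGD family and the CDC42 axis, the effector kinase gene Pak1 rose in all 3 populations, by 0.91 ± 0.17 in HE1, 1.52 ± 0.17 in HE2 and 1.08 ± 0.17 in HP (limma adjusted p = 0.0236, 0.000681 and 0.0153). Fgd2 rose in HE2 by 1.16 ± 0.20 (limma adjusted p = 0.00585), and the medians were 0.02 in HE1, 0.25 in HE2 and 0.14 in HP. Of 18 tested adhesion receptors and partners of ADGRG1, Adgrg6 rose by 0.85 ± 0.22 and Adgrg3 fell by 1.35 ± 0.23 in HE2 (limma adjusted p = 0.0429 and 0.00636), and none passed in HE1 or HP, with medians of −0.22 in HE1, −0.15 in HE2 and 0.14 in HP. With 1 library left out, the number that rose in HE2 was 1 to 2 for the KIT chain, 0 to 1 for the Ly6 family, 0 to 2 for the CD34 list, 1 to 2 for the FGD list and 0 to 1 for the adhesion list. In HE1 and in HP it was 0 to 1 for the CD34 and FGD lists. The 7 libraries low in Lars2 cannot decide these calls either, with 1 library in every group but NoDox HE2.

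The strength of the calls across processing choices is shown for the 3 called values and for Kit in HE2. Every alternative kept the sign of these 4 values, and the adjusted p crossed the threshold in both directions.

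**Figure D5:**
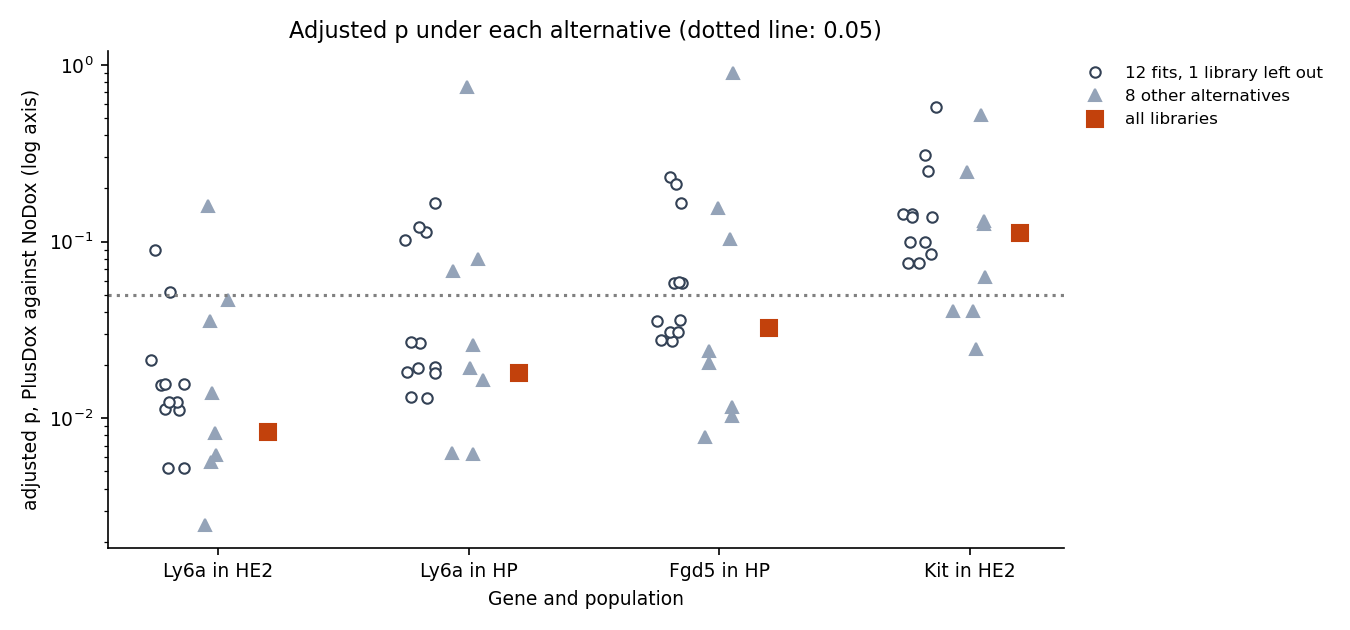
Adjusted p (limma, log axis) of Ly6a in HE2, Ly6a in HP, Fgd5 in HP and Kit in HE2, PlusDox against NoDox; open circles are the 12 fits with 1 library left out, triangles the 8 other alternatives and squares the fit to all libraries, and the dotted line is 0.05. Circles of Ly6a in HE2, Ly6a in HP and Fgd5 in HP lie on both sides of the line, and for Kit in HE2 3 triangles lie below it.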

How the data were processed

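RNA of 12 libraries (6 groups of 2 biological replicates, sequenced paired-end in 1 pool with a stranded total RNA kit, per the labels' protocols) was analysed. The submitters' processing notes name Trimmomatic 0.32, HISAT2 2.1.0, StringTie 1.3.3 and mm10, while the gates of the sort, the gene annotation and the use of strand are not given in those sources. The deposited files hold 1 value per gene name without a header, read here as FPKM made by the authors with StringTie, because the values are not whole and the sums differ between libraries (468326 to 579055). Values of repeated names were added.

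Without read counts the absolute depth stays unknown, and no counting interval is given. Steps between low values gave depths of 0.58 to 1.57 relative to the median library. In this scale 54 of 66 pairs of libraries agreed within 0.1 (log2), and the value of PlusDox HP replicate 1 was not settled. The libraries high in Lars2 stood at 0.58, 0.644, 0.705, 0.907 and 1.05, and those low in Lars2 at 0.898 to 1.57. Lars2 class and depth are thus partly mixed. Between 11461 and 12174 genes reached 1 FPKM per library.

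Testing covered genes at 1 FPKM or more in 2 or more libraries, on log2(FPKM + 1), with limma 3.58.1 in R 4.3.3, with 6 group means and an intensity trend, 6 residual and 5.83 prior degrees of freedom. Two-sided p-values were adjusted (Benjamini-Hochberg) over all tested genes in each of 12 comparisons. They rest on the spread between 2 replicates, pooled over groups. The 3 PlusDox against NoDox comparisons and the 6 steps share groups. With 2 libraries a group, a permutation test cannot reach 0.05. The fit was tested on simulated data.

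Alternatives were a pseudocount of 0.1, no filter, quantile and median scaling, a replicate block, a term for libraries above 1000 FPKM of Lars2, the 7 other libraries alone, the 4 libraries of a population alone, and each library left out. Called list genes were named up to 4 per comparison by fold, and the 4 genes nearest in pattern per member, leaving out predicted genes. From the list of other surface genes 1 gene is not reported here, and the counts and medians of that list leave it out. The members, lists and tests were chosen with earlier results of these data known. Plots were drawn with matplotlib 3.10.9 in Python 3.11.15.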

Additional observations from a re-analysis of the deposited data

How the results depend on the processing

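The number of genes called with doxycycline depended on the settings. In HE1 it was 182, and 97 with a pseudocount of 0.1, 351 after quantile normalization, 311 after median scaling, 0 in the libraries low in Lars2, 2 in the HE1 libraries alone and 2 to 191 with 1 library left out. In HE2 it was 807, and 450 without a filter, 1824 after quantile normalization, 1596 after median scaling, 1254 with the Lars2 class as a term, 7 in the libraries low in Lars2, 349 in the HE2 libraries alone and 172 to 877 with 1 left out. In HP it was 111, and 197 after median scaling, 175 with the class term, 3 in the libraries low in Lars2, 16 in the HP libraries alone and 10 to 124 with 1 left out. Fewer libraries leave fewer degrees of freedom. Those low in Lars2 hold 1 library in every group but NoDox HE2, so a loss of calls there cannot show that the calls fail. Higher genes made up 63.1% of the HE2 calls, against 51.6% after quantile normalization and 45.6% under the replicate block.

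The replicate numbers were shared by the groups, and same-numbered libraries deviated together in part (r of −0.10 to 0.53 over 15 pairs of groups, over 0.1 in 12). The main fit did not take the numbers as pairs, so this shared part stayed in its estimate of the spread. With a replicate block, 459, 2296 and 305 genes were called in HE1, HE2 and HP, and Kit passed in HE2 (−0.80, limma adjusted p = 0.0245). At unchanged folds, steps that passed with the block included Adgrg1 in PlusDox HP against HE2 (limma adjusted p = 0.0035), Fgd5 in NoDox HE2 against HE1 (0.0394), and Kit in NoDox HE2 against HE1 (0.0304), NoDox HP against HE2 (0.0372) and PlusDox HP against HE1 (0.0324).

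Kit in HE2 also passed after quantile normalization (−0.72) and median scaling (−0.73). Ly6a in HE2 was 1.70 in the libraries low in Lars2, and with 1 library left out it was 1.23 to 1.70. Ly6a in HP did not pass without a filter (1.60, limma adjusted p = 0.0793) or in the HP libraries alone (1.60, 0.0679). It was 1.74 in the libraries low in Lars2 and 1.49 to 1.70 with 1 left out. Fgd5 in HP did not pass without a filter (1.35, limma adjusted p = 0.104) or in the HP libraries alone (1.35, 0.155). It was 1.51 in the libraries low in Lars2 and 1.07 to 1.62 with 1 left out. The cause of each loss was not tested beyond the number of libraries and genes.

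Signs turned only for values that had not passed. In the libraries low in Lars2 these were, with doxycycline, Ly6a (−0.19), Cd34 (−0.48) and Fgd5 (0.13) in HE1 and Kit in HP (0.16), and Ly6a in PlusDox HE2 against HE1 (0.28). Fgd5 in HE1 was 0.0035 after median scaling. Kit in NoDox HP against HE1 was −0.0682 after quantile normalization and −0.0365 after median scaling, Kit for HE2 minus HE1 was 0.0851 with the class term, and Ly6a for HP minus HE2 was −0.0303 after quantile normalization.

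With 1 library left out, the doxycycline values in HE1 ran over −0.0868 to 0.70 for Ly6a, −0.38 to 0.45 for Cd34, −0.32 to 0.21 for Fgd5 and −0.0036 to 1.64 for Adgrg1. Cd34 in HE2 ran over −0.0077 to 0.86, and in HP Kit over −0.47 to 0.32 and Adgrg1 over −0.26 to 0.11. The differences of effects ran over −0.43 to 0.14 (Kit) and −0.0440 to 0.83 (Cd34) for HE2 minus HE1, and −0.10 to 0.37 (Ly6a) and −0.30 to 0.57 (Cd34) for HP minus HE2. HP against HE1 in NoDox cells ran over −0.12 to 0.20 for Kit and −0.55 to 0.28 for Cd34, and in PlusDox cells Ly6a in HE2 against HE1 ran over −0.30 to 0.17 and Kit in HP against HE2 over −0.35 to 0.43.

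Quantile normalization and median scaling lowered the median of all genes in HE2 against HE1 by 0.13 to 0.15 (log2), and Fgd5 in NoDox HE2 against HE1 then passed (−0.87 and −0.90), as it did with the class term (−0.89). Over all settings, 19 step values gained and 9 lost their pass, 6 of these in the libraries low in Lars2.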

Other observations

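The genes beside each member on its chromosome were looked at after the member values were seen, as the 2 nearest tested genes on each side, 20 in all. Of their 60 doxycycline values 2 were called, both in HE2, where 6.06% of all tested genes were called. Ly6e, 34973 bases from Ly6a, rose by 1.45 ± 0.23 (limma adjusted p = 0.00431), in the population in which Ly6a rose by 1.46. In HP, where Ly6a also rose, the value of Ly6e was 0.76 ± 0.23 and did not pass (limma adjusted p = 0.218). Adgrg3, 2905 bases from Adgrg1, fell by 1.35 ± 0.23, with 6.90 ± 2.31 FPKM in PlusDox HE2 and 18.7 ± 0.741 FPKM in NoDox HE2 (limma adjusted p = 0.00636). The value of Adgrg1 itself there was −0.71 ± 0.52 and did not pass. No neighbour of Kit, Cd34 or Fgd5 was called in any population.

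Mast cells carry high KIT. The sum of 6 mast cell markers was 0.279 to 0.568 FPKM in PlusDox HE2 against 1.58 to 1.85 FPKM in NoDox HE2, and 0.610 to 1.69 FPKM in PlusDox HP against 3.29 to 3.38 FPKM in NoDox HP, the highest of any group. Fcer1a, Tpsb2 and Mcpt4 were at 0 in every group. Ms4a2 went the other way from the sum, above 0 only in PlusDox HE2 and PlusDox HP. Of the 2 markers tested, Cpa3, a mast cell protease gene, fell in HE2 by 0.73 ± 0.18 (limma adjusted p = 0.0349), with means of 0.187 FPKM in PlusDox cells and 0.972 FPKM in NoDox cells, in the population in which Kit had its lowest doxycycline value. In HP, Cpa3 was −0.83 ± 0.18 (limma adjusted p = 0.0621) and Kit −0.08 ± 0.28. In HE1, where Kit was −0.66 ± 0.28, the mast sum was 0.187 to 0.235 FPKM in PlusDox cells and 0.429 to 0.932 FPKM in NoDox cells. The part of mast cells in the Kit values was not tested.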
